A study of Salmo salar with 96 samples.

Results

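The expression of 5 related transcription cofactor genes of Atlantic salmon was followed across early development and 15 tissues: *vgll3a*, *vgll3b*, *yap1*, *wwtr1a* and *wwtr1b* (VGLL3a, VGLL3b, YAP1, WWTR1a and WWTR1b on the panel). They were taken by name, as the 5 genes coding for Vgll3, Yap1 or Wwtr1 (Taz) among the 220 genes of a NanoString nCounter panel, and all 5 were measured in all 96 samples. The rule itself used no measured value. The salmon genome carries many genes as paralogs left by an ancient duplication, and the letters a and b mark such copies. *Vgll3a* is the copy on chromosome 25, in the region associated with age at maturity, and the panel carried probes for the second copy as well. The study asked where and when the genes of that region are expressed.

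Yap1 and Wwtr1 are the transcription coactivators at the end of the Hippo pathway. The Lats kinases phosphorylate them and hold them in the cytoplasm, and the kinase Stk3 is also needed to inactivate Yap1. When the kinases are quiet, Yap1 and Wwtr1 enter the nucleus and bind Tead proteins, which hold the DNA. Vgll3 belongs to the vestigial-like family, which binds Tead through a short motif of its own and can occupy the same partners. In mammals the pathway is known for its control of organ size, of fat and cartilage differentiation and of the supporting cells of the gonad. These roles are background, and none was measured here: the counts are of mRNA, whereas Yap1 and Wwtr1 are regulated largely by phosphorylation.

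The 18 early samples were whole hatchery fish of the Neva strain: embryos of 186 degree days (°d) and of 258 °d, alevin of 436 °d, with 4 fish of each, and 6 fry. Fry 1 and 2 had reached 1119 °d and fry 3 to 6 1320 °d, and fry 5 and 6 were fed a low-fat diet. The yolk sac had been removed from embryos and alevin. Blood came from 4 Neva fry at 2212 °d, with replicates 3 and 4 on the low-fat diet. The other 74 samples were dissected tissues of 3-year-old parr, the freshwater juvenile. Hatchery parr of the Neva strain were fish 1 and 2, both male, and fish 3 and 4, both female, all immature and on the normal diet. Wild parr of the Inarijoki river were fish 5 to 8, all male, with fish 5 and 6 immature and fish 7 and 8 mature. Strain, rearing, diet, sex and maturity thus go together in part, and eye, gill, heart, kidney, liver, muscle and skin were the tissues taken from both kinds of fish. A tissue is a mixture of cells, so that fewer cells of a type and less RNA per cell cannot be told apart in any of these values.

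Levels are normalized counts, the raw count of a probe multiplied by a factor for the RNA content of its sample, and 20 was the level the study took as background. The raw counts of a sample summed to between 47598 and 949899, and to between 201761 and 480697 in the early samples. Muscle of hatchery fish 4 and liver of wild fish 5 were left out because their factors exceeded 3.0, which left 94 samples. In 8 of these the negative control probes, scaled with the same factor, averaged 20 or more, up to 47.4 in the pyloric caeca of fish 1. The gills of fish 3 and 4 stood apart: of 44 panel genes that were low elsewhere, 38 and 29 lay at 20 or more there, against 1 to 3 in the other 5 gills and at most 18 in any other sample kept. Among the tissue markers on the panel, the 9 eye genes together reached 540 and 265 normalized counts in these 2 gills, against 61.0 to 97.5 in the other 5. The eye genes were not alone in this. Pituitary genes summed to 538 and 159 against 52.6 to 77.3, and muscle genes to 269 and 74.4 against 15.96 to 39.2. Gonad genes summed to 199 and 239 against 39.1 to 134. The sums for brain, liver, adipose tissue, connective tissue and bone, and T cells lay within the range of the other 5 gills. Probes differ in efficiency, so levels are compared between samples for 1 gene, never between genes.

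*Wwtr1a* and *wwtr1b* were at 20 or more in 92 of the 94 samples each, and *yap1* in 86. *Vgll3a* reached 20 in 61 samples, and in 44 of those it also exceeded the highest negative control of its own sample. *Vgll3b* reached 20 in 7 samples. These were both ovaries, the gills of fish 3 and 4, the hearts of wild fish 5 and 6, and the pyloric caeca of fish 1, the sample with the highest negative controls. In the first 6 of them *vgll3b* also exceeded the sample's highest negative control. By tissue means, *vgll3b* was above background in 2 of 15 tissues, *vgll3a* in 8, *yap1* in 14 and both *wwtr1* genes in all 15.

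Among the early stages, alevin had the highest mean of *vgll3a*, *yap1*, *wwtr1a* and *wwtr1b*, and 3 of these 4, all but *wwtr1b*, were called lower in fry. *Vgll3a* was at 21.5, 26.7, 31.2 and 24.02 normalized counts in the 4 embryos of 186 °d and at 38.7, 29.9, 31.5 and 31.6 in those of 258 °d. In alevin it was at 58.0, 61.8, 62.3 and 41.0, so that every alevin lay above every embryo. The fry were at 38.6, 49.3, 35.5, 44.9, 29.8 and 44.0, overlapping with the lowest alevin. The means were 25.9 ± 4.12 (SD, n = 4), 32.9 ± 3.91 (n = 4), 55.7 ± 10.04 (n = 4) and 40.3 ± 7.12 (n = 6). The negative control probes, scaled in the same way, moved with it: their mean level was 7.19, 9.72, 15.5 and 12.96 at the 4 stages. *Vgll3b* stayed between 4.00 and 17.5 and was above background in 0 of the 18 early samples.

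*Wwtr1b* made the clearest step. It was at 441, 431, 392 and 352 in the 186 °d embryos and at 440.4, 438, 481 and 444 in the 258 °d embryos. The 4 alevin were at 626, 624, 635 and 641, well above all 8 embryos, and the 6 fry lay on both sides of the alevin, at 617, 562, 705, 664, 656 and 525. *Wwtr1a* instead fell back in fry. It was at 542, 596, 402 and 509, then 447, 465, 504 and 460.1 in the embryos, and at 659, 585, 586 and 524 in alevin. All 6 fry, at 429.9, 486, 473, 398, 483 and 379.8, were below the lowest alevin. *Yap1* varied least between stages: 62.3 to 95.1 at 186 °d, 82.3 to 94.0 at 258 °d, 85.8 to 119 in alevin and 60.1 to 91.3 in fry.

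**Figure D1:**
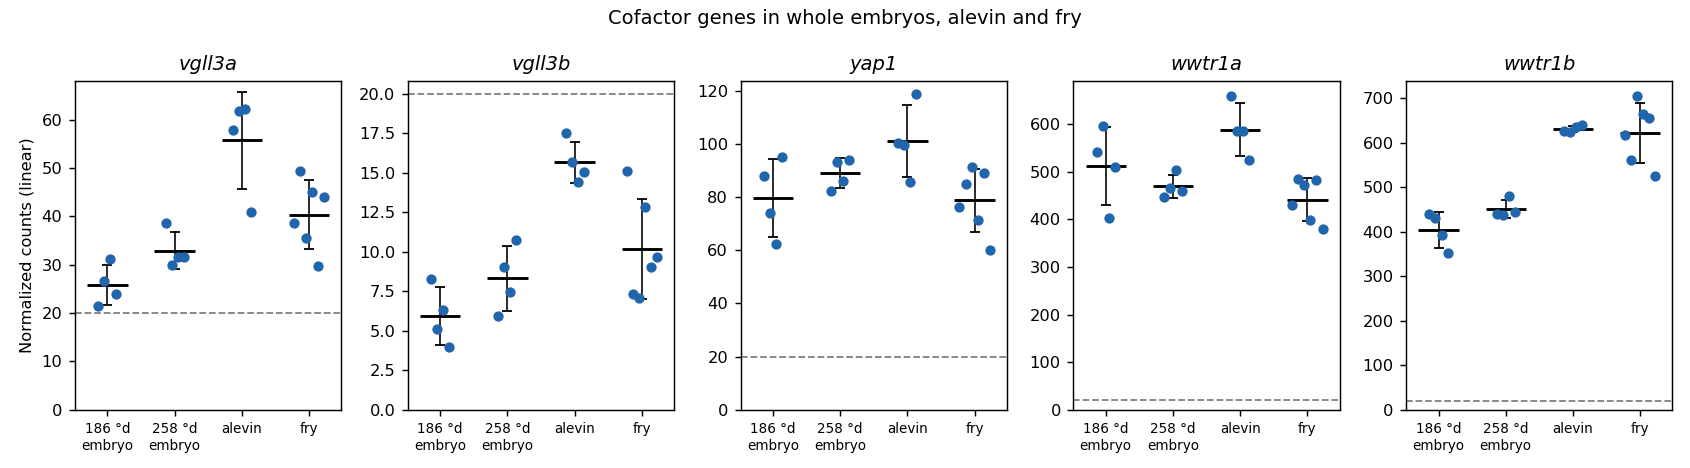
Normalized counts (linear axes) of the 5 cofactor genes in whole 186 °d embryos, 258 °d embryos, alevin and fry. Points are samples, horizontal lines means, error bars SD and the dashed line the background of 20; *vgll3b* is above it in 0 of 18 samples, and *wwtr1b* is at 624 to 641 in all 4 alevin.

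The steps between stages were tested with edgeR's quasi-likelihood test, with p-values adjusted by Benjamini-Hochberg over the 178 genes tested and 0.05 as the threshold. Between the 2 embryonic stages, 0 of the 4 cofactor genes that passed the filter on low counts changed, where 32.0% of all genes tested did. *Vgll3a* came nearest, with a log2 difference of +0.35 (SE 0.18, adjusted p = 0.15). From 258 °d to alevin, 3 of the 4 rose, against 49.4% of all genes changed in either direction and 36.5% that rose. *Vgll3a* rose by 0.78 on the log2 scale (SE 0.18, adjusted p = 0.0015), *wwtr1b* by 0.49 (SE 0.10, adjusted p = 0.00058) and *wwtr1a* by 0.33 (SE 0.12, adjusted p = 0.024). *Yap1* differed by +0.17 (SE 0.15, adjusted p = 0.35). From alevin to fry, 3 of the 4 fell, against 62.9% of all genes changed and 44.9% that fell. *Wwtr1a* fell by 0.42 (SE 0.10, adjusted p = 0.0019), *vgll3a* by 0.47 (SE 0.16, adjusted p = 0.016) and *yap1* by 0.35 (SE 0.14, adjusted p = 0.037), while *wwtr1b* differed by -0.02 (SE 0.09, adjusted p = 0.84).

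The median gene of the panel moved by +0.19 at the first of these steps and by -0.30 at the second, and scaling by TMM over the panel, which takes that common shift out, left 3 of the 6 calls. The rises of *vgll3a* and *wwtr1b* in alevin were called under every alternative tried and without any 1 sample; with the negative controls subtracted, that of *vgll3a* was +0.81 (SE 0.29, adjusted p = 0.038). *Wwtr1a* in alevin was +0.11 with TMM (adjusted p = 0.36), and it was not called without alevin replicate 1 or without 258 °d replicate 1 or 4 (adjusted p = 0.055 to 0.084). In fry, TMM gave -0.16 for *wwtr1a* (adjusted p = 0.15), -0.21 for *vgll3a* (0.30) and -0.10 for *yap1* (0.57). The fall of *vgll3a* also lost its call without alevin replicate 2 or 3, and that of *yap1* without alevin replicate 1, 2 or 4 or fry replicate 1, 4 or 6. With the nCounter cartridge as a block both of them were lost, at adjusted p = 0.19 for *vgll3a* and 0.196 for *yap1*.

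The rest of the pathway on the panel was taken as 15 genes with Hippo kinase or Tead symbols. The counts and medians given for these 15 here and below include *mst1a* and *mst1b*. From alevin to fry 11 of the 15 fell and 2 rose, with a median log2 change of -0.55 beside -0.30 over all genes. *Tead1c*, which codes for one of the DNA-binding partners, fell by 1.28. The 2 that rose carry the symbols *mst1a* and *mst1b*, at +1.26 and +2.03; MST1 is also the symbol of a secreted liver protein, and these 2 genes were 7.97 and 8.65 higher on the log2 scale in liver than in the other tissues. From 258 °d to alevin 4 of the 15 rose, led by the kinase gene *lats2b* (+0.49), and 3 fell, led by *tead1c* (-0.62) and *tead1d* (-0.51). The shares over all genes were 36.5% that rose and 12.9% that fell. Among 17 genes of differentiation, 15 of which passed the filter, 10 rose in alevin and 3 fell, where 36.5% of all genes rose and 12.9% fell. The 10 included *cebpdb* (+1.86) and *cebpda* (+1.45), which code for transcription factors of early fat cell formation, and *col1a1b* (+1.03), a collagen gene.

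Within stages, *vgll3a* and *yap1* tended to opposite directions, short of the threshold after adjustment except for rho with TMM. After stage means were removed, their Pearson's r over the 18 early samples was -0.70 (permutation within stages, two-sided p = 0.0055, adjusted p = 0.055 over the 10 pairs of the 5 genes). Spearman's rho was -0.68 (permutation p = 0.0068, adjusted p = 0.068), and r was -0.69 once the 2 samples with the most extreme *vgll3a* were dropped. The alevin with the lowest *vgll3a*, at 41.0, had the highest *yap1*, at 119, and the fry with the lowest, at 29.8, was at 89.3. Within the 1 cartridge that held samples of every stage, r was -0.69 over 12 samples (permutation p = 0.059), and with cartridge means removed too it was -0.74 (permutation p adjusted over the 10 pairs = 0.083). With TMM r was -0.68 (permutation p adjusted over the 10 pairs = 0.086), while rho, at -0.73, passed the threshold (permutation p adjusted over the 10 pairs = 0.031). The other 9 pairs had r between -0.41 and 0.34.

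**Figure D2:**
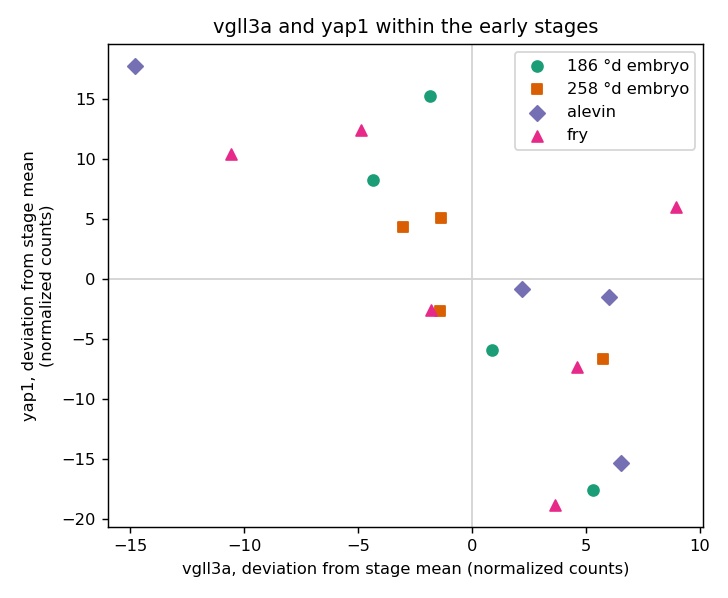
Deviation of *vgll3a* (x axis) and of *yap1* (y axis) from the mean of their stage, in normalized counts on linear axes, for 18 whole samples with the stage shown by colour and shape. The points fall from upper left to lower right (r = -0.70, permutation p adjusted over 10 pairs = 0.055).

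In the tissues, the level of a gene in 1 tissue was tested against its average over the remaining 14, over 217 genes. *Vgll3b* passed the filter on low counts there only through its means in ovary (132.8) and gill (24.96). Of the 75 tests of the 5 genes 46 were called, while the share of all genes called ran from 30.0% in fin to 67.3% in muscle. The ovary had the highest level of 4 of the 5 genes by a wide margin. *Wwtr1b* was at 4103 and 4968 in the ovaries of fish 3 and 4, *wwtr1a* at 2669.9 and 2765, *yap1* at 709 and 872, and *vgll3b* at 150.2 and 115. The ovary mean was 5.32 times that of the second highest tissue for *vgll3b*, 4.90 times for *yap1*, 3.62 times for *wwtr1b* and 2.68 times for *wwtr1a*. *Vgll3a*, in contrast, was at 18.5 and 10.8 there, below background. Against the other tissues the log2 differences of the ovary were +4.12 for *vgll3b* (SE 0.35, adjusted p = 3.6e-17), +3.84 for *yap1* (SE 0.26, adjusted p = 2.4e-22), +3.57 for *wwtr1b* (SE 0.21, adjusted p = 1.3e-25) and +3.33 for *wwtr1a* (SE 0.29, adjusted p = 1.3e-16). So 4 of 5 were called, against 60.4% of all genes, and the median gene was at +0.69. *Vgll3a* was at -0.89 (SE 0.64, adjusted p = 0.23).

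The testes came next for *yap1* and *wwtr1b*. *Wwtr1b* was at 1641 and 924 in the immature testes of hatchery fish 1 and 2 and at 978 and 1466 in the mature testes of wild fish 7 and 8. *Yap1* was at 161, 182, 115 and 188 in the same order, *wwtr1a* at 751, 538, 461 and 802, and *vgll3a* at 37.4, 29.7, 81.1 and 49.8. *Wwtr1b*, *yap1* and *wwtr1a* overlapped between the immature and mature testes, while both mature testes had more *vgll3a* than both immature ones. *Vgll3b* was at 6.23 to 10.8 in all 4, below background. Testis differed from the other tissues by +1.58 for *wwtr1b* (SE 0.19, adjusted p = 8.8e-11), +1.38 for *yap1* (SE 0.26, adjusted p = 5.1e-06), +1.08 for *wwtr1a* (SE 0.28, adjusted p = 0.00095) and +0.98 for *vgll3a* (SE 0.38, adjusted p = 0.028), 4 of 5 called against 44.7% of all genes. The *vgll3a* call was lost with the fish as a block (+0.92, adjusted p = 0.059), with TMM (+0.62, adjusted p = 0.16) and without fish 7 (+0.61, adjusted p = 0.31) or fish 8 (+0.99, adjusted p = 0.066).

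Set against each other in a fit of the 6 gonads over 190 genes, ovary and testis differed in all 5 genes, where 82.6% of all genes tested did. *Vgll3b* was higher in the ovary by 3.99 on the log2 scale (SE 0.33, adjusted p = 3.8e-05), *yap1* by 2.30 (SE 0.28, adjusted p = 3.0e-04), *wwtr1a* by 2.09 (SE 0.27, adjusted p = 4.1e-04) and *wwtr1b* by 1.86 (SE 0.29, adjusted p = 0.0010). *Vgll3a* alone was lower in the ovary, by -1.67 (SE 0.41, adjusted p = 0.0072). Without the ovary of fish 4 that difference was -1.34 (adjusted p = 0.057), and with the negative controls subtracted -2.66 (adjusted p = 0.070). *Vgll3b* passed the filter on low counts only through the ovary, as its testis means were 6.83 and 9.555, and *vgll3a* only through the testes. Both were also called without that filter. The summed level of the panel's 3 liver genes, *apoc1a*, *apoc1b* and *spp2*, was also lower in the ovaries. It was 1441 and 259 there, against 305989 to 430621 in the testes. Not each of the 3 went that way. All 3 were at 20 or more in both ovaries, but only 2 of them in the testes of fish 1, 2 and 8. The part of these genes in the *vgll3a* difference was not tested. Against the immature testes only, the order of signs was the same and 5 of 5 were called against 73.7% of all genes, with *vgll3a* at -1.18 (SE 0.45, adjusted p = 0.048). That call was lost without any 1 of the 4 samples, at values from -0.85 to -1.62, and also without the filter. Mature and immature testes, which also differed in strain and rearing, differed in 0 of the 5 genes where 11.1% of all genes were called, and *vgll3a* was at +0.99 (SE 0.43, adjusted p = 0.17).

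Of the 15 Hippo kinase and Tead genes, 7 were higher and 6 lower in the ovary than in the testis, where 46.3% of all genes were higher and 36.3% lower. Those higher were led by the kinase genes *lats1a* (+5.87), *stk3a* (+4.78) and *lats1b* (+4.62). Some paralogs lay on both sides, an observation made after their values were seen: *lats2a* was at +0.93 and *lats2b* at -1.92, *tead1c* at +1.93 and *tead1a* at -2.11, and *tead3a* at +1.10 and *tead3b* at -1.91. The median over the 15 was -0.11, beside +0.33 over all genes.

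Blood was the opposite extreme. Its 4 samples came from fry instead of parr, shared 1 cartridge and, per the methods of the study, had their RNA extracted with another kit. Tissue, age, extraction and cartridge thus cannot be told apart for blood. In the 4 samples of fry blood *yap1* was at 1.5, 7.23, 10.7 and 4.04, *wwtr1a* at 7.48, 50.6, 21.3 and 4.04, and *wwtr1b* at 7.48, 48.8, 44.4 and 13.1. *Vgll3a* was at 5.99 to 15.97 and *vgll3b* at 3.03 to 5.32. Only *wwtr1a* and *wwtr1b* thus reached the background level, in 2 of the 4 samples each. All 5 genes were called lower than in the other tissues, where 63.6% of all genes were called and the median gene was at -1.19. The log2 differences were -4.29 for *wwtr1b* (SE 0.33), -4.25 for *wwtr1a* (SE 0.47) and -3.77 for *yap1* (SE 0.44), each with an adjusted p below 1e-09 in edgeR's test. For *vgll3a* (-1.28) and *vgll3b* (-1.23) the blood levels were under background, and neither was called with TMM (-0.26 and -0.18, adjusted p = 0.67 and 0.78). Of the 15 tissue means, 8 of *vgll3a* and 2 of *vgll3b* were at 20 or more. Of the 15 Hippo kinase and Tead genes 12 were lower in blood and 0 higher, where 54.8% of all genes were lower and 8.76% higher. The largest differences were those of *tead1c* (-4.63), *tead1b* (-4.20) and *tead2* (-4.00).

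**Figure D3:**
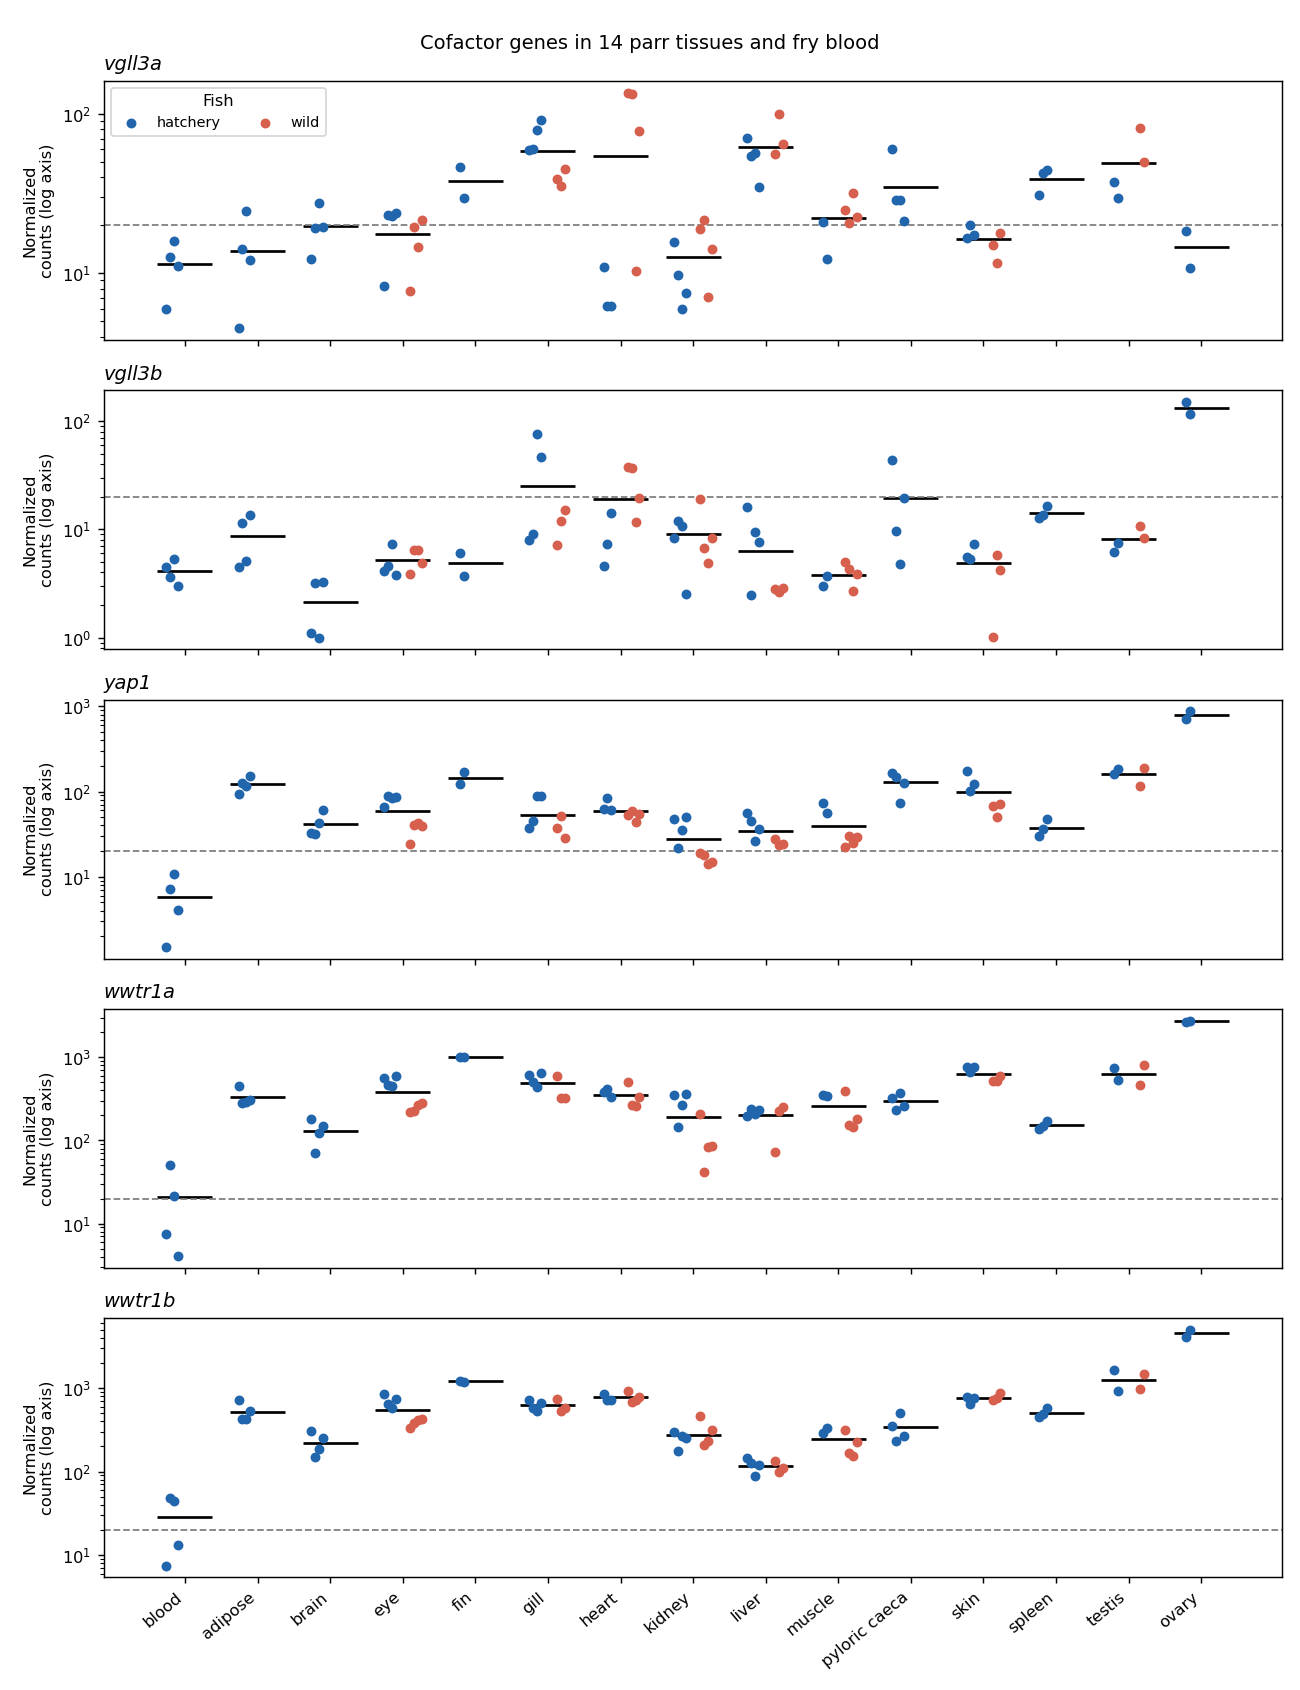
Normalized counts (log axes) of the 5 genes in 14 parr tissues and fry blood; points are samples, blue from hatchery and red from wild fish, horizontal lines tissue means and the dashed line the background of 20. *Yap1*, *wwtr1a*, *wwtr1b* and *vgll3b* peak in the 2 ovaries, where *vgll3a* is at 18.5 and 10.8.

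Fin and skin were high in *yap1* and both *wwtr1* genes. The adipose fin and tail fin, both of fish 1, had 1013 and 1014 normalized counts of *wwtr1a*, 1230 and 1192 of *wwtr1b* and 122 and 169 of *yap1*. Fin was called higher for these 3 of 5 genes against 30.0% of all genes, at +1.80 for *wwtr1a* (SE 0.35, adjusted p = 2.8e-05), +1.53 for *wwtr1b* (SE 0.26, adjusted p = 2.4e-06) and +1.23 for *yap1* (SE 0.35, adjusted p = 0.0049; with TMM +0.67, adjusted p = 0.096). Both fins came from 1 fish, so their agreement says nothing of the spread between fish. In 6 skin samples the means were 640.1 ± 114 (SD) for *wwtr1a*, 763 ± 75.6 for *wwtr1b* and 98.3 ± 46.1 for *yap1*. Skin was likewise called higher for 3 of 5 genes, against 44.7% of all genes, at +1.09, +0.82 and +0.62. Without fish 1 *yap1* in skin was +0.49 (adjusted p = 0.089), and without fish 3 +0.62 (adjusted p = 0.053). Of the 15 Hippo kinase and Tead genes, 7 were higher and 1 lower in fin and 8 higher and 2 lower in skin. Over all genes, 27.2% were higher and 2.76% lower in fin, and 29.0% higher and 15.7% lower in skin.

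Adipose tissue and pyloric caeca were high in *yap1* alone among the coactivators. Adipose tissue was at 93.6, 126, 117 and 153 of *yap1* in fish 1 to 4 (+0.96, SE 0.26, adjusted p = 0.0019), 1 of 5 genes called against 51.2%. Pyloric caeca, the blind pouches of the foregut, were at 166, 146, 74.0 and 124 (+1.03, SE 0.27, adjusted p = 0.0015). There *vgll3b* was called as well, 2 of 5 against 33.2% of all genes, at +1.11 (SE 0.42, adjusted p = 0.034). It rested on fish 1, at 43.6 against 9.67, 4.77 and 19.5 in the other 3 fish: without fish 1 it was +0.30 (adjusted p = 0.72), without fish 4 +1.14 (adjusted p = 0.087), and with the fish as a block +1.03 (adjusted p = 0.065).

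Brain, kidney and muscle were low. In brain, *wwtr1a* was at 71.2 to 180.4, *wwtr1b* at 149 to 305 and *yap1* at 31.4 to 61.2, and *vgll3b* at 1.00 to 3.26. There 4 of 5 genes were called lower against 65.9% of all genes, *wwtr1a* at -1.36 (SE 0.36) and *wwtr1b* at -1.09 (SE 0.25), with *yap1* at -0.69 no longer called without fish 1 (-0.44, adjusted p = 0.26), 2 or 3. The fourth was *vgll3b* (-2.14), under background in every brain. With the negative controls subtracted the calls of *vgll3b* and *yap1* in brain were lost. In kidney 4 of 5 were lower against 53.0%, with *yap1* at -1.33 (SE 0.24, adjusted p = 7.5e-06), *vgll3a* at -1.13 (SE 0.34), *wwtr1a* at -0.76 (SE 0.25) and *wwtr1b* at -0.75 (SE 0.18). *Vgll3a* averaged 12.6 in kidney, under background, and with the negative controls subtracted only the call of *wwtr1b* remained there. In muscle 3 of 5 were lower against 67.3%, *yap1* at -0.79 (SE 0.27), *wwtr1b* at -0.92 (SE 0.21) and *vgll3b*, under background throughout, at -1.38 (SE 0.44). In hatchery fish only, *wwtr1a* in kidney was at -0.32 (adjusted p = 0.31), *yap1* in muscle at -0.24 (adjusted p = 0.53) and *wwtr1b* in muscle at -0.59 (adjusted p = 0.12). Spleen was lower in *wwtr1a*, at 137, 150.3 and 171 (-1.12, SE 0.40, adjusted p = 0.023), 1 of 5 called against 36.9% of all genes. That call was lost without any 1 of the 3 fish, at -0.85 to -1.18. In eye, 1 of 5 was called against 48.8%: *vgll3b*, at 3.79 to 7.35 and thus under background, with -0.83 (adjusted p = 0.048), a call lost without fish 2, 4, 5, 7 or 8.

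Liver split the genes. *Vgll3a* had its highest tissue mean there, 62.4 ± 20 (SD, n = 7). The livers of hatchery fish 1 to 4 were at 70.4, 54.7, 56.5 and 34.6 and those of wild fish 6 to 8 at 55.9, 100.1 and 64.5, all above background and overlapping. *Wwtr1b* had its second lowest mean there, after blood, 118 ± 19.8, and *yap1* was at 34.3 ± 12.3. Against the other tissues *vgll3a* was at +1.33 (SE 0.29, adjusted p = 4.5e-05) and *wwtr1b* at -2.07 (SE 0.21, adjusted p = 1.9e-13). *Yap1* (-1.0, SE 0.26) and *wwtr1a* (-0.68, SE 0.26, adjusted p = 0.019) were lower too, 4 of 5 called against 64.1% of all genes. Without fish 1 *wwtr1a* was at -0.48 (adjusted p = 0.15), and without fish 3 at -0.68 (adjusted p = 0.053). With the negative controls subtracted the calls of both *yap1* and *wwtr1a* in liver were lost, while those of *vgll3a* and *wwtr1b* held. Of the 15 Hippo kinase and Tead genes 8 were lower and 3 higher in liver, where 35.0% of all genes were lower and 29.0% higher. Among the 3 were *mst1a* and *mst1b*, whose symbol is shared with a secreted liver protein.

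In gill, *vgll3a* was at 59.3, 60.4, 79.4 and 91.8 in hatchery fish 1 to 4 and at 39.1, 35.2 and 45.1 in wild fish 5 to 7. All 7 were above background. *Vgll3b* was at 8.05, 9.09, 76.7 and 46.7 in the hatchery gills and at 7.10, 12.03 and 15.02 in the wild ones, so that only the 2 gills that stood apart exceeded background. Gill was called higher for 4 of 5 genes, against 55.3% of all genes and a median gene at +0.53: *vgll3a* at +1.24 (SE 0.28, adjusted p = 0.00017), *vgll3b* at +1.51 (SE 0.29, adjusted p = 1.2e-05), *wwtr1a* at +0.69 (SE 0.23, adjusted p = 0.0088) and *wwtr1b* at +0.50 (SE 0.17, adjusted p = 0.010). Without the gills of fish 3 and 4, *vgll3b* was at +0.29 (adjusted p = 0.46), and it was the only 1 of the 4 that lost its call by that. The part of those 2 samples' unusual counts in the *vgll3b* level was not tested. *Wwtr1b* was at +0.24 with the fish as a block (adjusted p = 0.10), and with TMM *wwtr1a* and *wwtr1b* were at +0.31 and +0.14 (adjusted p = 0.21 and 0.53).

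Heart was the tissue in which samples of 1 tissue differed most in *vgll3a*. The hearts of hatchery fish 1 to 3 were at 10.97, 6.23 and 6.26, below background, and those of wild fish 5 to 8 at 136, 134, 10.4 and 78.3. Of the wild hearts 3 were thus far above every hatchery heart, while that of fish 7 lay within their range. *Vgll3b* was at 4.57, 7.36 and 14.3 in the hatchery hearts and at 37.7, 37.3, 11.8 and 19.6 in the wild ones. The call of heart as high against other tissues, 3 of 5 genes against 65.0% of all genes, rested on this for both *vgll3* genes. Over all fish *vgll3a* was at +1.11 (SE 0.29, adjusted p = 0.00078) and *vgll3b* at +1.08 (SE 0.30, adjusted p = 0.0015). In hatchery fish only, *vgll3a* was at -1.60 (adjusted p = 4.5e-04), lower than in the other tissues, and *vgll3b* at -0.05 (adjusted p = 0.94). With the fish as a block *vgll3a* was at +0.60 (adjusted p = 0.14), and without fish 6 at +0.68 (adjusted p = 0.060). *Wwtr1b* was evenly high in heart, from 690 to 933 in the 7 samples (+0.84, SE 0.16, adjusted p = 1.5e-05).

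Few neighbours in the order of tissues differed. All pairs of tissues were tested over all genes, and 50.6% of the 22785 tests were called. Of the 105 pairs, 39 were called for *vgll3a*, 48 for *vgll3b*, 72 for *yap1*, 67 for *wwtr1a* and 79 for *wwtr1b*. Between neighbours in the order of mean levels, 0 of 14 differed for *vgll3a*, so that liver, gill, heart and testis at its top did not differ from the tissue next to them beyond the spread. For *vgll3b* 1 of 14 did. *Yap1* differed between ovary and testis, skin and heart (adjusted p = 0.050) and kidney and blood. *Wwtr1a* differed between ovary and fin (adjusted p = 0.048) and brain and blood, and *wwtr1b* between ovary and testis, brain and liver (adjusted p = 0.0036) and liver and blood.

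By pattern, the coactivator genes were nearest to each other. Over the mean levels of the 4 stages and 15 tissues, on the log2 scale, Pearson's r was 0.93 between *wwtr1a* and *wwtr1b*, 0.92 between *yap1* and *wwtr1a* and 0.90 between *yap1* and *wwtr1b*. For *yap1* the 2 *wwtr1* genes were the most alike of the panel, and the third was *tle1b* (0.82), which codes for a Groucho-type corepressor. Without ovary and blood the 3 values were 0.76, 0.77 and 0.69 over 17 groups. The third gene nearest to *wwtr1a* was *vdrac* (0.82) and to *wwtr1b* *tle4b* (0.79). *Vgll3b* was most like *cxxc4*, *kif15* and *cebpbb* (0.80, 0.80 and 0.76), though at most 0.47 to those 3 without ovary and blood. *Vgll3a* had no close match: *rln3aa*, *apoc1a* and *snai2b* came first, at 0.62, 0.62 and 0.52, and it was at 0.17 to its own paralog. The groups share fish and cartridges, so these values describe the panel and carry no test.

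The paralogs shifted against each other from tissue to tissue. The log2 ratio of *wwtr1a* over *wwtr1b* was 0.33 ± 0.22 (SD, n = 4) in 186 °d embryos, 0.06 ± 0.03 (n = 4) in 258 °d embryos, -0.11 ± 0.15 (n = 4) in alevin and -0.49 ± 0.17 (n = 6) in fry. Its mean was thus lower at each stage than at the one before. From alevin to fry the difference was -0.39 (exact permutation test, two-sided, p = 0.019, adjusted p = 0.19 over the 20 ratio tests of stages and habitats). Among tissues the ratio was highest in liver, 0.71 ± 0.74 (n = 7), and lowest in spleen, -1.73 ± 0.03 (n = 3), with heart at -1.14 ± 0.24 (n = 7) and testis at -0.96 ± 0.17 (n = 4). The log2 ratio of *vgll3a* over *vgll3b* averaged 1.59 ± 1.26 over the 94 samples and was lowest in the 2 ovaries, at -2.95 and -3.30. The probes differ, so its sign says nothing, and it is compared between samples only. Outside the ovary, *vgll3b* exceeded both background and the highest negative control only in the gills of fish 3 and 4 and the hearts of wild fish 5 and 6.

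**Figure D4:**
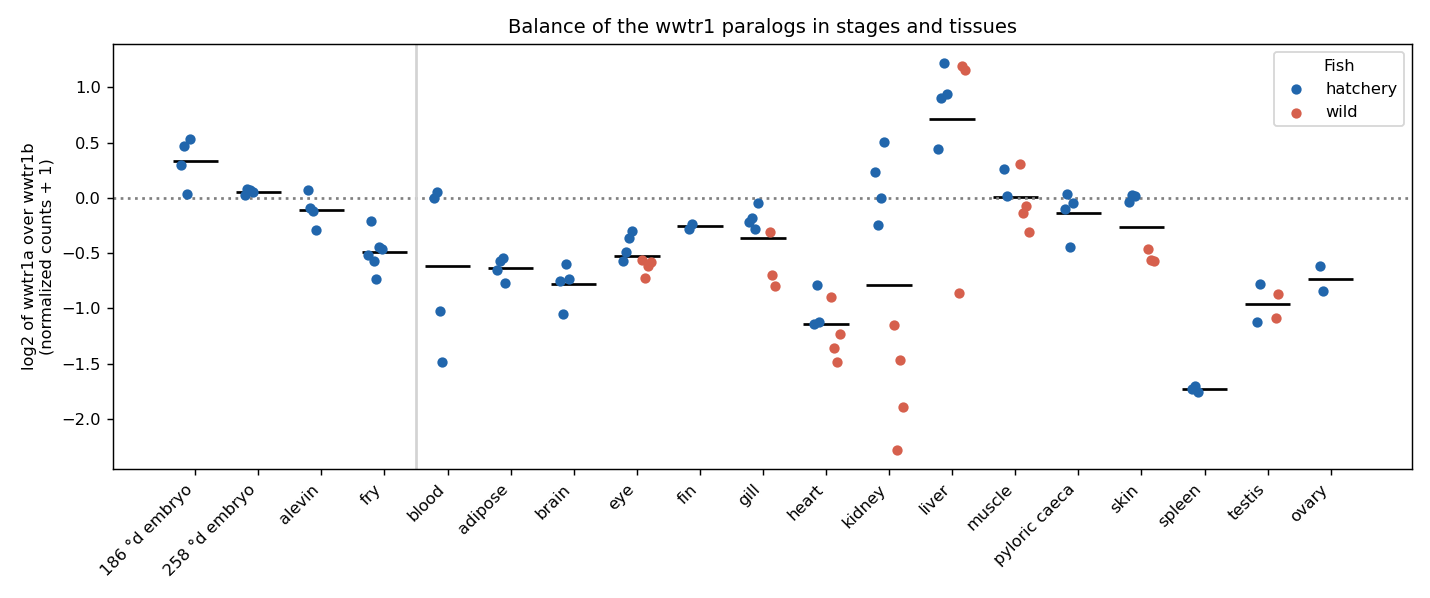
Log2 ratio of *wwtr1a* over *wwtr1b* (normalized counts plus 1, linear axis of log2 values) in 4 early stages, left of the grey line, and 15 tissues. Points are samples, blue hatchery and red wild, and black lines group means; spleen (-1.73) is lowest, liver (0.71) highest, and in kidney all 4 wild fish lie below all 4 hatchery fish.

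Between wild and hatchery parr, *yap1* was the gene that moved most evenly. It was lower in wild fish with no overlap in eye, heart, kidney, muscle and skin, 5 of the 7 tissues compared; the share of all genes lower in the wild without overlap was 28.1% in eye, 25.5% in heart, 37.4% in kidney, 42.6% in muscle and 56.2% in skin, and 21.5% in liver and 31.8% in gill. Eyes of hatchery fish 1 to 4 were at 65.1, 89.0, 83.3 and 85.9 and those of wild fish 5 to 8 at 24.5, 40.9, 42.2 and 39.4. Kidneys were at 48.3, 21.6, 35.6 and 50.3 against 18.98, 18.1, 14.3 and 15, so that the wild kidneys were under background. Muscles were at 72.8 and 55.4 in hatchery fish 1 and 3 against 22.3, 30.0, 25.0 and 28.9. Skins were at 176, 101 and 123 in fish 1, 3 and 4 against 67.6, 50.4 and 72.2 in fish 6, 7 and 8. The hatchery mean was 2.10 to 2.41 times the wild mean in these 4 tissues. In heart the gap was narrow, with hatchery hearts at 63.1, 84.3 and 60.9 and wild hearts at 52.8, 59.6, 44.3 and 54.0, and liver and gill overlapped.

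The test called *yap1* lower in the wild in 4 tissues: eye (-1.13, SE 0.24, adjusted p = 0.0021), kidney (-1.25, SE 0.33, adjusted p = 0.0090), muscle (-1.25, SE 0.35, adjusted p = 0.032) and skin (-1.07, SE 0.26, adjusted p = 0.011). In kidney it passed the filter on low counts only through the hatchery fish, with means of 38.9 in hatchery and 16.6 in wild kidneys. Averaged over those of the 7 tissues that each fish had, *yap1* was 0.89 lower in the wild on the log2 scale, and all 4 wild fish lay below all 4 hatchery fish (exact permutation test over 8 fish, two-sided, p = 0.029, the smallest that this design can give). Fish 2 lacked muscle and skin, fish 4 heart and muscle, fish 5 liver and skin and fish 8 gill, so the fish means rest on partly different tissues. The same separation was seen for 29.3% of the 215 genes so compared. With gill left out *yap1* (-0.94) and *wwtr1a* (-0.73) were lower in all 4 wild fish, as were 28.2% of 206 genes. *Vgll3a* (+0.68) was higher in all 4, as were 7.77%, and each had the same exact p. The gap was narrow for *wwtr1a*, with the highest wild fish at 0.209 and the lowest hatchery fish at 0.222 on the log2 scale. It was narrow for *vgll3a* too, with the lowest wild fish at -0.152 and the highest hatchery fish at -0.186. For *yap1* the highest wild fish was at -0.308 and the lowest hatchery fish at 0.246. The tissue means of *vgll3a* differed most in heart, at 89.64 in wild and 7.82 in hatchery fish. The wild mean was also higher in kidney, liver and muscle. It was lower in eye (15.87 against 19.59) and skin (14.82 against 18.03), where both means were under background. Fish means without heart were not tested. Over all 7 tissues *wwtr1a* (-0.69) and *vgll3a* (+0.46) overlapped (exact p = 0.086 each). Many other genes were lower too. The median gene of the panel was at -0.19 in eye, -0.70 in kidney, -0.55 in muscle and -0.60 in skin. With TMM *yap1* was at -0.70 in kidney (adjusted p = 0.10), -0.63 in muscle (adjusted p = 0.21) and -0.49 in skin (adjusted p = 0.15), whereas the call in eye held (-0.98, adjusted p = 0.0043). The call in muscle was also lost without fish 1 (-1.04, adjusted p = 0.20), 3, 6, 7 or 8. In kidney the call was also lost with hatchery males only and with immature wild males only, and in muscle with immature wild males only. Both were lost with the negative controls subtracted too. No cartridge held wild and hatchery samples of the same tissue, so that the cartridge, the strain and the rearing cannot be told apart from each other here. Sex and maturity went with them in part, as hatchery fish 3 and 4 were female and wild fish 7 and 8 mature.

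The *wwtr1* genes followed in the eye. *Wwtr1a* was at 572, 462, 447 and 594 in hatchery eyes against 222, 229, 268 and 285 in wild ones, and *wwtr1b* at 851, 651, 574 and 732 against 329, 379, 412 and 428. The groups did not overlap in either gene. All 3 cofactor genes tested in eye were called lower, against 56.1% of all genes, with *wwtr1a* at -1.05 (SE 0.17, adjusted p = 4.5e-04) and *wwtr1b* at -0.86 (SE 0.17, adjusted p = 0.0016). The effect on *wwtr1b* differed between eye and the mean of the other 6 tissues by -0.82 (SE 0.24, adjusted p = 0.0058; 34.9% of all genes were called in this test), and without any 1 fish by -0.63 to -0.93, called each time.

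In kidney the 2 paralogs came apart. *Wwtr1a* was at 353, 147, 265 and 360 in the hatchery kidneys of fish 1 to 4 against 211, 41.6, 84.5 and 85.0 in wild fish, and *wwtr1b* at 300.3, 174, 265 and 253 against 468, 206, 235 and 319. *Wwtr1a* thus overlapped only through wild fish 5 and hatchery fish 2, while *wwtr1b* overlapped widely. The log2 difference was -1.45 for *wwtr1a* (SE 0.47, adjusted p = 0.021) and +0.30 for *wwtr1b* (SE 0.29, adjusted p = 0.38), and 2 of 3 cofactor genes were called there with *yap1*, against 66.0% of all genes. Without fish 1, 4, 7 or 8 the call of *wwtr1a* was lost, at -1.30 to -1.36. It was also lost with DESeq2, with hatchery males only and with immature wild males only. The log2 ratio of the paralogs was 0.12 ± 0.32 (n = 4) in hatchery kidneys and -1.70 ± 0.50 (n = 4) in wild ones, with no overlap. That difference of -1.82 had an exact permutation p of 0.029, the smallest that 4 against 4 allows, and an adjusted p of 0.19. The ratio was lower in the wild without overlap in gill as well (-0.42, exact p = 0.029, adjusted p = 0.19) and in skin (-0.53, exact p = 0.10, the smallest allowed, adjusted p = 0.29). None of the 20 ratio tests passed the threshold after adjustment.

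Muscle and skin added little for the *wwtr1* genes. In muscle 1 of 4 cofactor genes was called, *yap1*, against 31.6% of all genes. In skin 2 of 3 were called against 54.2%, *yap1* and *wwtr1a*. *Wwtr1a* was at 771, 661 and 771 in hatchery skins and at 525.8, 519 and 591 in wild skins, a difference of -0.43 (SE 0.15, adjusted p = 0.047). With TMM it turned to +0.14 (adjusted p = 0.43) and with DESeq2 to +0.15 (adjusted p = 0.51), so that no direction can be given for it, and its call was also lost without any 1 of the 6 fish, at -0.39 to -0.50. In gill 0 of 5 were called against 24.9%, and in liver 0 of 4 against 23.4%. The nearest were *vgll3a* in gill, lower in the wild without overlap (-0.86, SE 0.32, adjusted p = 0.080), and *yap1* in liver (-0.68, SE 0.32, adjusted p = 0.14).

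**Figure D5:**
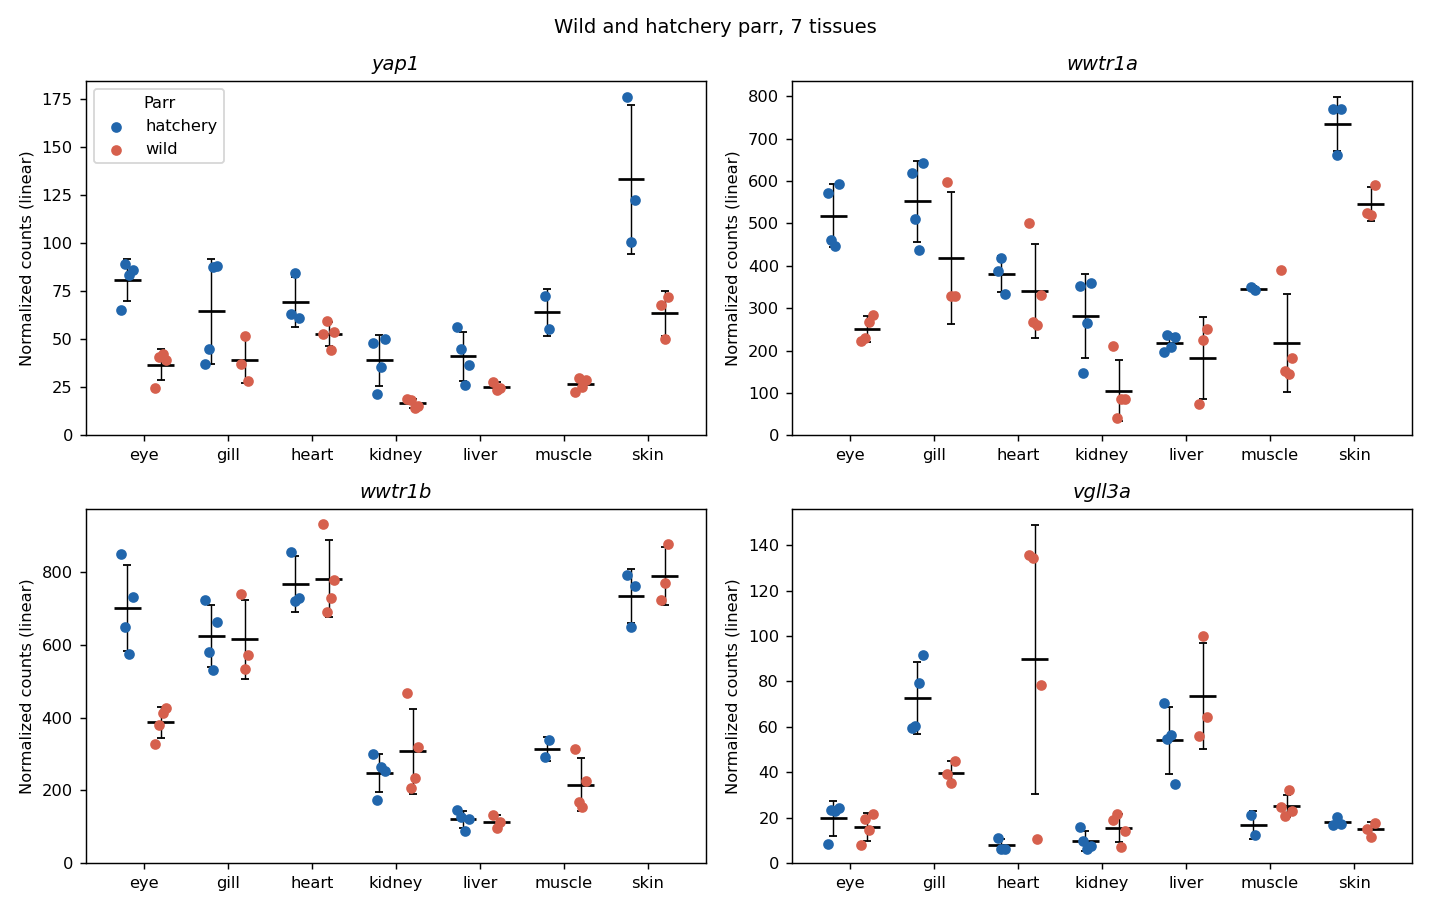
Normalized counts (linear axes) of *yap1*, *wwtr1a*, *wwtr1b* and *vgll3a* in 7 tissues of hatchery (blue) and wild (red) parr; points are samples, horizontal lines means and error bars SD. *Yap1* is lower in wild fish without overlap in 5 of the 7 tissues, and 3 of 4 wild hearts are high in *vgll3a*, at 78.3 to 136.

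Heart was the tissue where a *vgll3* gene was higher in the wild. *Vgll3a* differed by +3.51 (SE 0.84, adjusted p = 0.017), the only 1 of 5 cofactor genes called there, against 34.3% of all genes and 16.1% called higher. *Vgll3b* was at +1.57 (SE 0.59, adjusted p = 0.071). Both *vgll3* genes passed the filter on low counts only through the wild hearts, as the hatchery means were 7.82 for *vgll3a* and 8.75 for *vgll3b*. The effect in heart differed from the mean of the other 6 tissues by +3.47 for *vgll3a* (SE 0.55, adjusted p = 5.4e-06) and by +2.15 for *vgll3b* (SE 0.65, adjusted p = 0.012), where 27.9% of all genes were called. Without any 1 fish the *vgll3a* difference was +3.19 to +3.87 and called each time, while that of *vgll3b* was not called without fish 1 (+1.90, adjusted p = 0.062) or fish 6 (+1.84, adjusted p = 0.070). The call within heart was lost without any 1 of the 3 hatchery hearts, at +3.35 to +3.81 (adjusted p = 0.053 to 0.078), and also against the hatchery males alone.

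The sum of the same 3 liver genes was also higher in the wild hearts, though not each of them moved with *vgll3a*. Their summed level was 333, 546 and 544 in the hatchery hearts and 87532, 16062, 3089 and 4869 in the wild hearts of fish 5 to 8, against 439569 to 1266160 in the livers. They are no clean marker of liver here, since they summed to 305989 to 430621 in the testes. The heart of fish 7, with the lowest *vgll3a* of the wild hearts, also had the lowest sum. *Spp2* did not follow that order: it was at 545, 13.6, 22.8 and 7.04 in the hearts of fish 5 to 8. The hatchery hearts were at 3.58 to 14.6. *Apoc1b* was lower in the heart of fish 8, at 834, than in that of fish 7, at 1971. *Vgll3a* in the livers kept was at 34.6 to 100.1, while the hearts of fish 5 and 6 were at 136 and 134. The part of other tissue in the *vgll3a* level of these hearts was not tested. Among the differentiation genes, 7 of the 11 tested were higher in wild hearts and 0 lower, where 16.1% of all genes were higher and 18.2% lower. The median of the 11 was +1.82 beside 0.00 over all genes. *Cebpba* (+3.17), *cebpab* (+2.35) and *cebpdb* (+2.32), which code for C/EBP transcription factors of liver and fat, led the 7 that were higher.

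The kinase and Tead genes called between wild and hatchery fish were nearly all lower in the wild, as were most genes called in gill, muscle and skin. Of the 15 Hippo kinase and Tead genes, those called lower in the wild were 6 of 13 tested in eye, 9 of 15 in gill, 3 of 14 in heart, 7 of 14 in kidney, 5 of 15 in liver, 4 of 13 in muscle and 8 of 13 in skin. Over all genes the share called lower was 31.6% in eye, 21.4% in gill, 18.2% in heart, 46.9% in kidney, 15.8% in liver, 30.3% in muscle and 47.1% in skin. Only 1 was called higher in any tissue, the kinase gene *lats2a* in kidney (+0.76). Among those lower were *tead3a* in eye (-1.80) and heart (-1.42), and *tead1a* (-2.19) and *tead2* (-1.97) in kidney. Their medians, from -0.47 in heart to -0.93 in gill, lay beside medians over all genes of 0.00 and -0.74 in the same tissues.

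Sex, maturity and diet could be compared only between 2 fish and 2 fish. Over the 7 somatic tissues shared by the 4 hatchery fish, females minus males were at +0.11 for *vgll3a*, +0.23 for *vgll3b*, +0.17 for *yap1*, +0.08 for *wwtr1a* and -0.05 for *wwtr1b* on the log2 scale. With gill, the tissue in which both females stood apart, left out, they were at +0.04, -0.18, +0.02, +0.11 and -0.04. Mature minus immature wild males, over 4 tissues, were at -0.59, -0.56, -0.03, -0.19 and -0.08 in the same order of genes. None had an exact permutation p under 0.33, the smallest such a design allows. Between fry on the low-fat and the normal diet, 0 of the 4 cofactor genes tested in whole fry was called by edgeR against 0.581% of all genes, with 14 of the 172 genes at an unadjusted p under 0.05. In blood 0 of the 2 tested was called against 0.0%, with 3 of 100 genes at an unadjusted p under 0.05.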

How the data were processed

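NanoString nCounter probes count mRNA molecules without amplification. The deposited raw counts, per the file headers, held 220 genes, 8 negative and 6 positive control probes for 96 samples. The authors also deposited a normalized signal for 211 genes, in which raw counts were scaled in nSolver by positive controls and reference genes; raw counts times the 6-gene factor used here (*ef1ac*, *prkar1aa*, *rps20*, *rxrbaa*, *vdraa*, *vdrab*) equalled it within 0.0094% over 7426 values. No column was left unmapped. No alignment is involved, and counts of rarely detected genes mostly lie near those of the negative control probes.

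As in the study, a factor above 3.0 excluded a sample. Counts were tested with edgeR 4.0.16 in R 4.3.3 (quasi-likelihood F test, offset of the 6-gene factor, genes averaging 20 normalized counts or more in some group, Benjamini-Hochberg within each contrast, threshold 0.05). Single values were tested with exact permutation tests in scipy 1.17.1, with a pseudocount of 1 for ratios. Alternatives were TMM, 4 reference genes, DESeq2 1.42.0, limma 3.58.1 with the cartridge as a random block, subtracted negative controls, no filter, the cartridge or replicate as a block and leaving out each sample or fish. Alternatives without samples of high negative controls or without the gills of fish 3 and 4, the limma fit, the tests of habitat differences between tissues and the fish means were chosen after seeing the data. The 5 genes and the gene lists were chosen with earlier results of these data known. The 5 genes were always named, from the lists at most the 3 largest changes of a contrast, and the 3 genes most alike to each of the 5. In simulated data with the same spread for every gene, changes of 1 and of 2 on the log2 scale were planted. The stage step over 168 genes recovered 19 of 20 of the smaller and 20 of 20 of the larger changes, with 0 false calls. The kidney comparison over 137 genes recovered 17 of 20 and 20 of 20, with 2 false calls. Every tested stage step of the 5 genes was smaller than 1, and how often steps of that size are found was not tested.

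Fish numbers in the labels pair the tissues of a parr: samples of the same fish deviated together slightly (mean r = 0.11 over 293 pairs, -0.02 over 2034 others). Early fish were separate individuals that share only a number. Probes matched RefSeq genes of Ssal_v3.1 for 169 of 220 genes and 3 of the 5: *vgll3a* on chromosome 25, *wwtr1a* on chromosome 10 and *wwtr1b* on chromosome 23.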

Additional observations from a re-analysis of the deposited data

Results flagged for a closer look

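Of 80 groups of 4 to 10 samples, 5 held a sample far from the rest, and chance flags about 1 in 20 such groups. *Wwtr1b* was at 481 in 258 °d embryo replicate 3, above 438 to 444 in the other 3. *Wwtr1a* was at 456 in the adipose tissue of fish 1, against 284 to 308 in the other 3 fish, and at 389 in the muscle of wild fish 5, against 145 to 183 in the other wild muscles. *Yap1* was at 24.5 in the eye of wild fish 5, below 39.4 to 42.2 in the other wild eyes. *Vgll3a* was at 8.32 in the eye of hatchery fish 1, the lowest of its group and below background.

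The wild-hatchery difference itself differed between 1 tissue and the mean of the other 6 in 5 instances, by edgeR's test within 1 fit. These were *vgll3a* in heart (+3.47), *vgll3b* in heart (+2.15), *vgll3a* in gill (-1.61, adjusted p = 0.023), *wwtr1b* in eye (-0.82) and *wwtr1a* in kidney (-0.96, adjusted p = 0.045). The share of all genes called was 27.9% in heart, 18.6% in gill, 34.9% in eye and 29.8% in kidney. Leaving out 1 fish at a time ended the call of *vgll3a* in gill without fish 3, 4, 5 or 6 (-1.45 to -1.58, adjusted p = 0.059 to 0.15). It ended that of *wwtr1a* in kidney without fish 1, 3, 4, 6, 7 or 8 (-0.81 to -0.93, adjusted p = 0.077 to 0.17). Gills 3 and 4 were the hatchery gills that stood apart on many low genes.

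The liver of wild fish 5, which was left out for its factor, held 188 normalized counts of *vgll3a*, above the 34.6 to 100.1 of the 7 livers kept. Its scaled negative controls were at 69.8.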

How the results depend on the processing

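The results followed numbered 75: 71 calls of the 5 genes and 4 differences of the *wwtr1* ratio, which were not called after adjustment. Of the 75, 40 kept their direction and side of the threshold wherever they were tried, under alternatives and without 1 sample or fish. The 4 ratio differences are among these 40, but they were tried under 3 alternatives only and never without a sample or fish. They stayed uncalled each time. Another 34 lost their call under at least 1 alternative or left-out sample, and 3 changed sign. The count of called stage steps fell from 6 to 3 with TMM, and the count of wild-hatchery differences from 9 to 4 with hatchery males only. Leaving out 1 sample or fish gave 4 to 6 stage calls, 40 to 48 tissue calls (46 with all samples), 5 to 10 wild-hatchery calls (5 without fish 1) and 8 to 10 gonad calls (10 with all samples). Signs changed for heart in hatchery fish only, with *vgll3a* at -1.60 and *vgll3b* at -0.052, and for *wwtr1a* in skin between wild and hatchery fish, at 0.14 with TMM and 0.15 with DESeq2. The causes were not tested.

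Subtracting the negative controls ended 20 calls among the 75 results, which include the 4 uncalled ratios. TMM and DESeq2 ended 17 of 71 calls each besides the reversed one, and 4 reference genes 10 of 71. Leaving out samples with scaled negative controls of 20 or more ended 7 of 65. The replicate block in the early stages left 4 of 6 calls, but same-numbered samples did not deviate together (mean r = -0.01 over 24 pairs, 7 of them over 0.1). The fish as a replicate block, fitted without blood, gave 42 tissue calls. Of the 41 calls outside blood it kept 37 and ended only the 4 named with their tissues. The blood calls could not be tried that way. A cartridge block within a wild-hatchery comparison was not run, since no cartridge held both kinds of a tissue.

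Over the whole panel, subtracting negative controls lowered the calls from 141 to 66 in heart, 115 to 57 in kidney and 80 to 49 in spleen. DESeq2 gave 36 calls against 21 between testes. Between wild and hatchery fish, gill had 50 calls but 17 with TMM, 20 with 4 reference genes, 23 with DESeq2 and 29 with immature wild males only; muscle 49, but 13 with TMM, 9 with hatchery males only and 2 with immature wild males only; and skin 83, but 52 with TMM, 55 with DESeq2 and 27 with immature wild males only. With immature wild males only kidney had 58 in place of 97 and liver 7 in place of 37, and with hatchery males only heart had 30 in place of 47. TMM moved the share of higher calls from 73.9% to 48.9% in alevin, from 28.6% to 44.0% in fry, from 13.8% to 44.0% in blood and from 14% to 88.2% in wild gill. *Vgll3a* reached the background level of 20 in 61 of the 94 samples and *vgll3b* in 7. The parts of probe background and of low counts in the levels near 20 were not tested.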
